A study of Mus musculus with 2 samples.

Results

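The genes described here encode 3 ligands of the IL-1 and IL-6 families (Il1b, Il6 and Lif), 5 receptor chains (Il1r1, Il1rap, Il6ra, Il6st and Osmr), the transcription factor Stat3 and the signalling inhibitor Socs3. They were chosen by name, and a probe was taken as theirs when its accession, without the version, was a RefSeq transcript of the gene. All 10 genes were found by 12 probes, among 20660 genes named in this way. The brightest probe represents a gene, and the second probes of Il1rap and Stat3 are given beside it. Cells of C57BL/6J mice aged 6 days, cultured as primary chondrocytes on silicon chambers coated with fibronectin, gave the RNA of both samples: 1 was taken before loading, and 1 was taken 24 h after the chambers had been stretched cyclically by 10%, at 0.5 Hz and for 30 min. The mice carried no named allele, and the number of animals and whether their cells were pooled are not given in the sources used here. Each sample was hybridised to 1 one-colour array, so no test was run, no p-value is given and the differences have no replicate check. The earlier sample is the control, so an effect of loading and one of longer culture cannot be told apart.

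IL-1β is a secreted cytokine that binds Il1r1, which recruits Il1rap to form the signalling receptor and leads to activation of NF-κB. Most members of the IL-6 family share the signal-transducing chain Il6st: IL-6 binds Il6ra first, LIF pairs Il6st with Lifr, and oncostatin M pairs it with Osmr or Lifr. These receptors activate JAK kinases and Stat3, and Stat3 induces Socs3, which binds the receptor complex and dampens it. In cartilage, IL-1 is known as a catabolic cytokine that induces matrix-degrading enzymes.

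The 3 ligands were well above background on neither array, whereas all 5 receptor chains, Stat3 and Socs3 were. Detection of 7 of the 10 genes on both arrays is near the share of all named genes, 68.9%. In the wider IL-6 family, 7 of 11 ligands and 5 of 8 receptors were detected. In the wider IL-1 family, 2 of 6 ligands and antagonists and 4 of 10 receptors were. None of the 7 detected genes was more than 2-fold higher or lower 24 h after loading, and their log2 ratios lay between -0.25 and 0.09. The largest, that of Il1rap, was at a dim probe and below its own measurement error. Stat3, read by 10 spots, was lower at 24 h at every spot, by 0.20 on the log2 scale.

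For a cytokine and an inhibitor that these pathways are known to induce, a stretch upstream of the transcription start is shown with the motif found there in capitals. Each stretch has 30 bases, is written 5′ to 3′ on the gene's strand and comes from the RefSeq promoter table of build GRCm38.p6, whose windows run from 250 bases before to 50 bases after a start. Windows of all 10 genes were searched on both strands for a form of the NF-κB site (GGGA, any base, then TTTCC) and for TTCNNNGAA, the core of a STAT site, which reads the same on both strands. The first motif was found in 1 of 11 windows of these genes and in 0.411% of all 32817 windows, and the second in 1 of 11 and in 8.29%.
Il6: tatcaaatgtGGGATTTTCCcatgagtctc
Socs3: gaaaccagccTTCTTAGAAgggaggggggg
The Il6 stretch, chr5:30013060-30013089 on the forward strand, lies before the annotated span of the gene, with the motif 44 to 35 bases before the start. The Socs3 stretch, chr11:117969501-117969530 on the reverse strand, has its motif 154 to 146 bases before the start of this window, and it falls inside the span of the gene, which the annotation extends to 117970336. A match is a string of letters and does not show that a factor was bound.

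The scanner software flagged 59.14% of the 59305 non-control spots as well above background on the earlier array and 57.66% on the later one, and 0 as saturated. A gene is called detected when its brightest probe was well above background on both arrays, which held for 68.9% of the named genes. All 12 markers listed for chondrocytes were detected, with a summed intensity of 1374230 before and 1377750 at 24 h. Single chondrocyte markers went both ways, 8 with a log2 ratio above 0 and 4 below, from -0.82 (Col11a1) to 0.56 (Matn1). Of 11 markers of macrophages and other leukocytes on the array, 9 were detected, with summed intensities of 30475 and 29555, most of it from 1 Itgam probe (25496 and 24759) whose gene had dimmer probes at 70.4 and 54.9 and at 49.0 and 44.2. The next brightest was Csf1r (3646 and 3288, log2 ratio -0.15), whose 2 dimmer probes were also detected, with 0.20 and 0.27. It was followed by Lyz2, Fcer1g, Tyrobp and Laptm5, all between 132 and 506. Ptprc, which marks all leukocytes, was read by a dim probe (20.9 and 46.1, log2 ratio 1.14 with an error of 0.35). Aif1 was not well above background. Of the 9 detected leukocyte markers, 5 had a log2 ratio above 0 and 4 below. Of 8 endothelial markers, Pecam1 and Kdr were detected, with summed intensities of the list of 12917 and 12540, nearly all from 1 Kdr probe (12774 and 12375) while another Kdr probe was not well above background (5.05 and 5.63). Erythroid markers (2 of 4 detected) summed to 134 and 135, and the 10 fibroblast and tenocyte markers, all detected, to 217062 and 219666, mostly from Col1a2, Dcn and Col1a1. Sums led by so few probes say little about a cell class. Among the fibroblast markers Dpt, the dermatopontin gene read by 10 spots, had 59.2 before and 253.0 at 24 h, a log2 ratio of 2.10 with an error of 0.07. The part of these other cells in the values below was not tested, and in bulk RNA fewer cells of a type and less RNA per cell cannot be told apart.

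**Figure D1:**
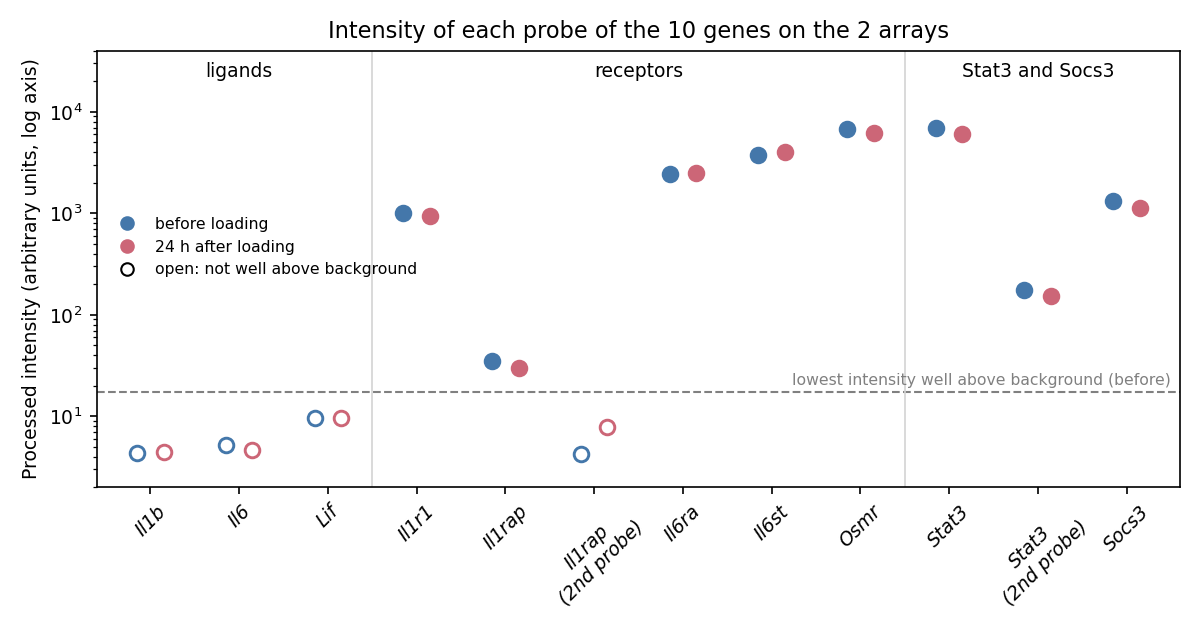
Processed intensity (log axis) of each of the 12 probes of the 10 genes before loading and 24 h after, with open symbols where a probe was not well above background and a dashed line at the lowest intensity that was well above background before loading (17.3). The 3 ligands lie under the line on both arrays and the pairs of filled symbols lie close together. Heights of different probes are not comparable.

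Among the ligands, Il1b was printed at 10 spots of 1 probe. Its intensities had a lowest value of 3.96, a median of 4.35 and a highest of 4.83 before loading, and 4.03, 4.39 and 5.01 at 24 h. None exceeded the brightest of the 293 negative control spots, 4.84 and 5.03, and 0 of the 10 spots were positive and significant by the software's weaker flag on either array. The spots of the 2 arrays overlapped, and none stood above the negative controls.

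The probe of Il6 had 2 spots, with intensities of 4.19 and 6.40 before loading and 4.26 and 5.08 at 24 h. On each array 1 of the 2 spots was positive and significant, and none was well above background. Lif, a cytokine of the IL-6 family, was read by 1 spot at 9.66 before and 9.72 at 24 h. Both values were above those of all negative control spots and positive and significant, yet below the lowest intensity that the software called well above background, 17.3 before and 17.8 at 24 h. None of these 3 genes was well above background, so no fold change is given. For Il1b only an upper bound is known.

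Both chains of the IL-1 receptor were detected. Il1r1, the chain that binds IL-1, had intensities of 1004 and 948 in the earlier and the later sample. Its log2 ratio, 24 h after minus before, was -0.08 with a within-array error of 0.20, and it turned to 0.02 when arrays were scaled by their medians. Il1rap, the accessory chain needed for signalling, was dim, with 35.4 before and 29.7 at 24 h on its brighter probe. The log2 ratio was -0.25 with an error of 0.36. Its other probe, named by another transcript of the gene, was well above background on neither array (4.23 and 7.83), and this probe was positive and significant only at 24 h. Neither chain differed between the samples by more than the error within an array.

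Receptors of the IL-6 family were read by 1 probe each. Il6ra, which binds IL-6, had intensities of 2431 before and 2520 at 24 h, a log2 ratio of 0.05 with an error of 0.20. Of the 30 spots within 100 µm of its spot, 3 were more than 2-fold lower and 0 more than 2-fold higher, and no other detected spot of these genes had as many changed neighbours in one direction. The part of these neighbours in the value was not tested. Il6st, the chain shared by most of the family, had 3731 and 3978, a log2 ratio of 0.09. Osmr, the chain for oncostatin M, had 6806 and 6217, a log2 ratio of -0.13. Each of these differences was smaller than its within-array error of 0.20.

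Downstream of the receptors, both genes were lower at 24 h. The 10 spots of Stat3 ranged from 6577 to 7257 with a median of 6966 before loading, and from 5863 to 6210 with a median of 6017 at 24 h. The spots of the 2 arrays did not overlap. The log2 ratio was between -0.29 and -0.16 at single spots and -0.20 on average, with an SD between spots of 0.04, which is technical spread within 2 arrays and not between cultures. A second Stat3 probe, named by another transcript and read at 1 spot, had 175.8 and 152.3, a log2 ratio of -0.21 with an error of 0.21. With median scaling the log2 ratio of the 10-spot probe was -0.11. Socs3, the inhibitor that STAT3 induces, had 1334 before and 1141 at 24 h, a log2 ratio of -0.22 with an error of 0.20, or 1.17-fold lower. Stat3 and Socs3 were the 2 detected genes of the 7 whose log2 ratio exceeded the within-array error, although that of Socs3 came to -0.13 under median scaling and to -0.16 under spike-in scaling, inside its error. The error of the 10-spot Stat3 probe was 0.06, because it falls as spots are added. The 1-spot Stat3 probe, with nearly the same log2 ratio, lay inside its own error.

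**Figure D2:**
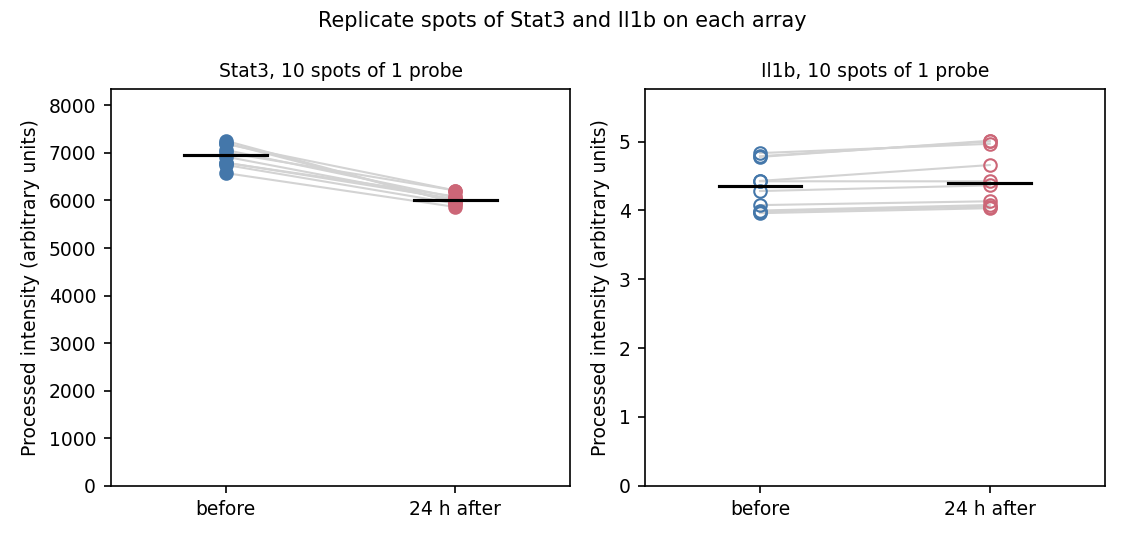
Processed intensity of the 10 spots of the Stat3 probe (left) and of the Il1b probe (right) on each array, with lines joining the same spot and a black bar at the median. The Stat3 spots at 24 h (5863 to 6210) lie under all spots before loading (6577 to 7257), and the Il1b spots, drawn open, lie between 3.96 and 5.01 on both arrays, not well above background.

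Over the 7 detected genes the median log2 ratio was -0.13, against -0.01 over all 14231 detected genes. None of the 7 was more than 2-fold higher, against 0.668% of all detected genes, and none was more than 2-fold lower, against 1.83% (2.49% either way), so that a count of 0 is near the background. With median scaling, 130 of all detected genes were higher and 205 lower, in place of 95 and 260. Ratios as small as those of the 7 genes, whose largest sets the limit, were found in 63.3% of all detected genes. The 5 genes below 0 (Il1rap, Socs3, Stat3, Osmr and Il1r1, the last above 0 with median scaling) compare with 52.4% of detected genes. In order of their log2 ratios, genes next to each other differed by less than their combined errors, from Il1rap at the low end to Il6st at the high end.

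**Figure D3:**
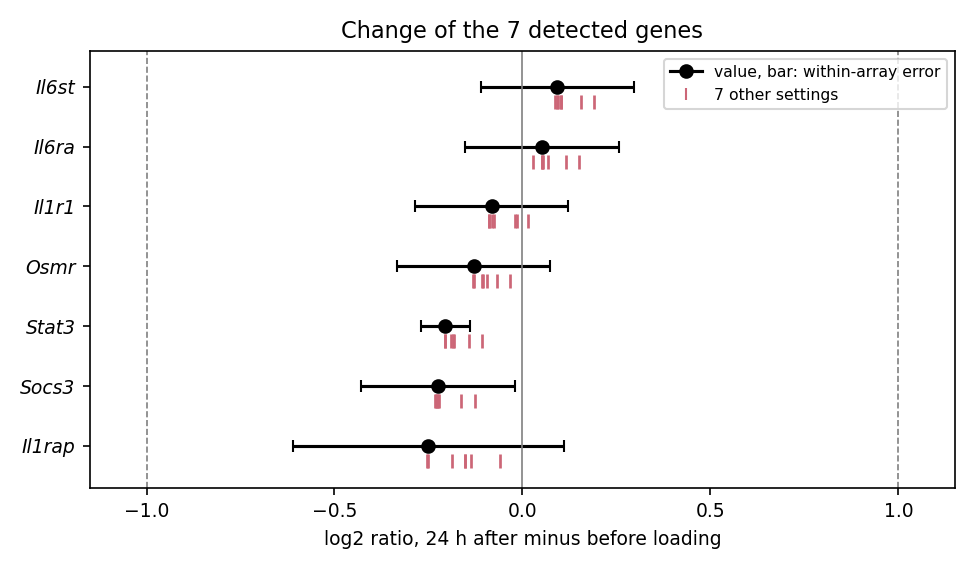
Log2 ratio (24 h after minus before loading) of the 7 detected genes, with bars for the within-array error and red ticks for 7 other ways of scaling or summarising the values. All points lie between -0.25 and 0.09, well inside the dashed lines at 2-fold, and the bars of Stat3 and Socs3 do not reach 0. The bar of Stat3 is shorter because its error is taken over 10 spots.

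The other ligands and receptors of both families were described in the same way from a list, and the highest and lowest ratios named for each list are among its genes detected on both arrays. Of 6 IL-1 family ligands and antagonists on the array, Il1b included, 2 were detected: Il18, an inflammasome-processed cytokine (1810 before and 2012 at 24 h, log2 ratio 0.15), and Il1rn, the IL-1 receptor antagonist (34.1 and 26.3, -0.38 with an error of 0.39). Il1a and Il1f10 were well above background on neither array, and Il33 was so only before loading (27.5, against 18.3 at 24 h). Among 10 IL-1 family receptors, 4 were detected: Il1r1, Il1rap, Il1rl1 and Sigirr. Il18r1 was well above background only at 24 h (16.0 and 27.0), and the decoy receptor Il1r2, Il18rap, Il1rl2, Il1rapl1 and Il1rapl2 were not on either array.

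Il1rl1, the receptor for IL-33, had the lowest log2 ratio of the list of other IL-1 family genes, -0.84 with an error of 0.21, with intensities of 439 and 245. On a dimmer detected probe of the gene (196 and 69.6) the ratio was -1.50, and averaging both gave -1.17, past 2-fold. A further probe was not well above background. Sigirr, a receptor known to restrain IL-1 family signalling, had the highest log2 ratio among the detected genes of this list, 0.45 with an error of 0.21 (338 and 461). Of the 14 genes of the list on the array, 5 were detected, with a median of -0.18. None of the 5 was more than 2-fold changed on its brightest probe, against 2.49% of all detected genes, so a count of 0 is near the background.

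Of 11 IL-6 family ligands, 7 were detected: Il11, Cntf, Ctf1, Ctf2, Clcf1, Il27 and Ebi3. Osm, the oncostatin M gene, was well above background only before loading (33.8, against 21.9), and Il6, Lif and Il31 were not on either array. Ctf1, the gene of a cardiotrophin that signals through Il6st and Lifr, had the highest log2 ratio of the other IL-6 family genes, 0.65 with an error of 0.06 over its spots (844 before and 1320 at 24 h). Of 8 IL-6 family receptors, Il6ra, Il6st, Osmr, Il11ra1 and Lifr were detected, while Cntfr, Il27ra and Il31ra were not on either array. The probes of Lifr, which was singled out after its values were seen, disagreed: the brightest had a log2 ratio of 0.21 (495 and 572), and 2 dimmer ones had -0.59 and -0.68. Il11ra1 has near-identical copies in the mouse genome, so that its signal (19551 and 21594) may not come from it alone. Of the 15 genes of this list, 10 were detected and 0 were more than 2-fold changed, against 2.49% of all detected genes. Their median was -0.07, which turned to 0.02 with median scaling and was -0.23 with the mean over detected probes.

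Downstream of the receptors, 21 of 22 other JAK, STAT and SOCS genes were detected. Of these, 0 were more than 2-fold changed, against 2.49% of all detected genes. Their median log2 ratio was 0.06. Cish, an inhibitor that STAT5 induces, had the highest, 0.62 with an error of 0.24 (57.8 before and 88.5 at 24 h), and the phosphatase Ptpn6 the lowest, -0.39 with an error of 0.25 (70.3 and 53.5).

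Genes known to respond to IL-1 in chondrocytes and other cells were listed as a readout of that pathway. Of 28, 20 were detected and 0 were more than 2-fold changed, against 2.49% of all detected genes. Of the 20, 9 had a log2 ratio above 0 and 11 below. Their median was -0.02, which turned to between 0.02 and 0.07 with median, spike-in, quantile and loess scaling and with normexp correction. The chemokine Cxcl5 had the highest, 0.86 with an error of 0.22 (88.7 before and 161.5 at 24 h). The lowest was that of Ptgs2, the inducible cyclooxygenase, at -0.87 with an error of 0.07 over its spots (145 and 79.5). Adamts5, an aggrecanase gene singled out after its values were seen, had 0.62 with an error of 0.22 on its brightest probe (68.4 and 105.3), and a dimmer probe (42.0 and 104.0) passed 2-fold with 1.31. Chemokines Cxcl2 and Ccl20, the colony-stimulating factors Csf2 and Csf3, and the cytokine Tnf lacked signal well above background in both samples.

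In a list of 26 genes known to respond to STAT3, 25 were on the array and 23 were detected, with a median log2 ratio of -0.15. Of these 23, 1 passed 2-fold upwards and 1 downwards, against 0.668% and 1.83% of all detected genes. The higher one was Steap4, a metalloreductase, at a dim probe (21.8 before and 43.8 at 24 h, log2 ratio 1.01 with an error of 0.38). With normexp background correction Steap4 came inside 2-fold, at 0.31. That setting adds 50 to every intensity, which makes the ratios of dim probes smaller. The share of this offset in the value of Steap4 was not tested. In the main setting Steap4 passed 2-fold by less than its within-array error. The lower one was Birc5, which encodes survivin and is also a gene of mitosis, with intensities of 10069 and 2301, a log2 ratio of -2.13, and -2.21 and -2.63 on its 2 dimmer probes. Of the 23 detected genes, 10 had a log2 ratio above 0 and 13 below. Fos, named after its values were seen, had -0.98 with an error of 0.08 over 8 spots (183 and 92.8). The acute-phase gene Saa3 and the protease inhibitor genes Timp1 and Serpina3n, also named after their values were seen, had log2 ratios of -0.89, -0.74 and -0.68 with errors between 0.20 and 0.21. Serpina3n has close relatives in its gene cluster, so that its signal may be shared. Hp and Lcn2, further acute-phase genes picked in the same way, had 0.43 and 0.11.

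**Figure D4:**
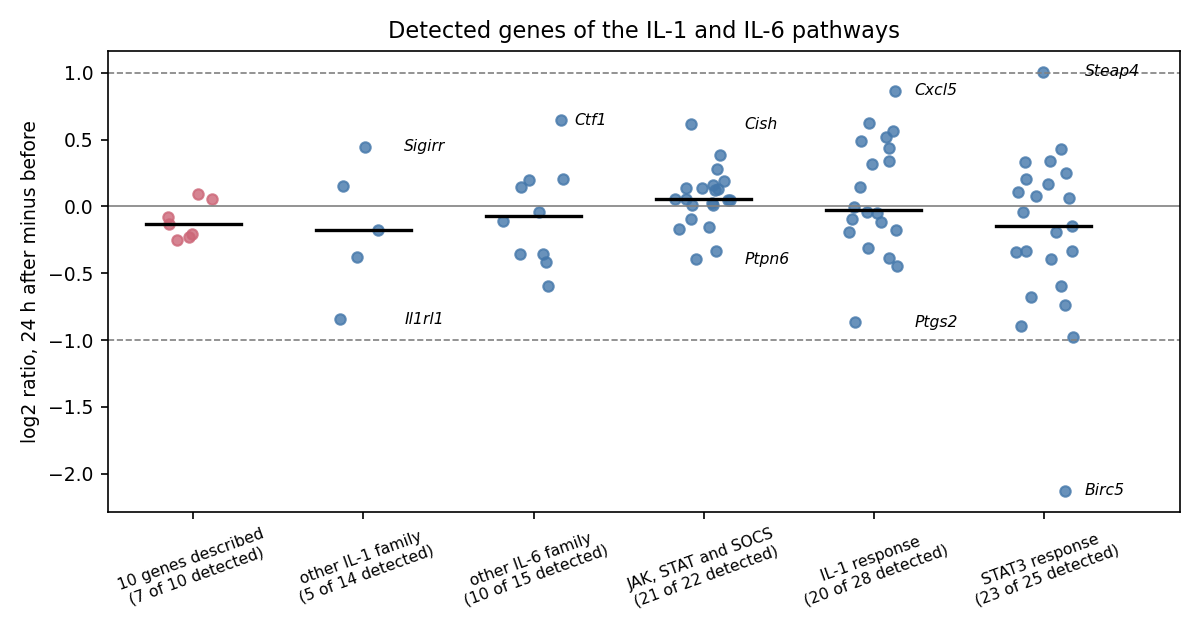
Log2 ratio (24 h after minus before loading) of the detected genes in each list, 1 point a gene at its brightest probe, with a bar at the list's median and dashed lines at 2-fold; some genes at the ends of the lists are named. The 10 genes described here (7 detected) span the narrowest range, and Birc5 (-2.13) and Steap4 (1.01) alone pass 2-fold.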

How the data were processed

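RNA of 2 samples, 1 before loading and 1 at 24 h, was hybridised to 1-colour SurePrint G3 Mouse arrays. The authors deposited the processed spot intensity of Agilent Feature Extraction 10.10.1.1, background-subtracted and not normalized between arrays, with its error and flags, and a table of the same intensities rounded to 3 significant digits. The array design's build is mm9. From these, spots flagged as outliers on either array (141 and 138) were left out, log2 intensities were averaged over the spots of a probe, and the 75th percentile of each array (466.37 and 466.15) was subtracted. A probe with several spots counted as well above background when most were. Within-array errors combine the software's errors of both arrays and treat the spots of a probe as independent. They are therefore smaller for probes with several spots. The number of arrays limits the precision. Accessions were named through RefSeq (GRCm38.p6, names only): 27235 of 55678 probes matched, and 4 listed Il36 genes, Serpina3g, Cd68, Hbb-b1 and Ahsp did not. Genes named are the 10 genes, listed genes past 2-fold, and the highest and lowest of each list; exceptions are marked, and some listed genes are not reported here. The genes and lists were chosen with earlier results of these data known. The Python 3.11.15 code was tested on simulated data; normexp and loess used limma 3.58.1 in R 4.3.3.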

Additional observations from a re-analysis of the deposited data

How the results depend on the processing

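The log2 ratios of the 7 detected genes were recomputed with median, spike-in, quantile and loess scaling, with normexp correction, with the authors' table and with the mean over detected probes. Of these 49 values, 1 moved by more than its within-array error, that of Stat3 with median scaling (-0.11). The error of Stat3, taken over 10 spots, was 0.06. The largest value in size was -0.25, and Il1r1 alone changed sign. No gene of the 10 passed 2-fold in any setting, with no filter on dim probes or with detection on 1 array included, and 8 in place of 7 were detected by the positive and significant flag, which adds Lif. Among the lists, the mean over probes put 1 other IL-1 family gene (Il1rl1, -1.17) more than 2-fold lower. With no filter, the median of that list was 0.0382, 1 IL-1 response gene and 3 STAT3 response genes were more than 2-fold lower, and detection on at least 1 array gave 2 STAT3 response genes. Normexp correction left 0 STAT3 response genes more than 2-fold higher (Steap4, 0.31). Over all genes, 38 were higher and 118 lower with normexp, against 95 and 260. The counts were 492 and 983 with no filter, and 192 and 507 with detection on at least 1 array. The settings on the filter add dim probes. Normexp was run with an offset of 50 added to every intensity, which makes the ratios of dim probes smaller. The share of this offset in the lower counts was not tested. Normexp used the median spot signal, as the files used here hold no mean. No paired analysis was possible because each time point has a single array. Low signal limits the ligands: none of the 3 was well above background on either array, so no fold change is given for them.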
